A study of Mus musculus with 2 samples.

Results

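Cells that prepare to divide and then divide need a set of genes that resting cells hardly use, and 49 such genes of G2 phase and mitosis are described here in mouse lungs at postnatal day 10. The members were taken from a list of G2 and mitosis genes by symbol, and each of the 49 was found among the 27998 genes of the count matrices. FACS-sorted epithelial, immune, endothelial and mesenchymal lung cells were run on the Chromium platform with its 3′ kit, giving 1 control library and 1 mutant library. The mutant is named in the labels after Nkx2-1, the homeodomain transcription factor gene of lung epithelium, and Aqp5, a water channel gene of alveolar type 1 (AT1) cells, from whose locus Cre is often expressed to delete floxed genes there. The control is named after Nkx2-1 alone, and the sources used here do not give the alleles, the strain, the sex or the number of animals behind a library. With 1 library in each group the differences below have no replicate check and were not tested. Each interval is an exact 95% interval on counts, or for a ratio of shares an approximate one, and covers counting error only. Molecules counted with a 3′ kit carry 1 identifier (UMI) per captured transcript, so a level is given in CPM, the UMIs of the gene per 1000000 UMIs of the class of cells and carries no gene length term.

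Entry into mitosis is driven by cyclin B and its kinase, which are activated by a phosphatase and switched off again when the anaphase-promoting complex marks cyclin B for destruction. In between, Aurora kinases and motor proteins build the spindle, kinetochores tie chromosomes to it under the watch of a checkpoint, and a central spindle guides the final split of the cell. The lung around this age is still forming alveoli: endothelial and mesenchymal cells and alveolar type 2 (AT2) cells are known to divide, while the flat AT1 cells that form the gas exchange surface and the ciliated cells of the airway are known to have left the cell cycle.

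The control library held 4461 barcodes with a median of 5943 UMIs and the mutant library 4551 with a median of 8305, and 27 barcode sequences occurred in both. Filters left 3979 control cells and 4249 mutant cells. They were split into AT2-like cells (1251 control and 213 mutant), airway cells (142 and 75), endothelial (591 and 489), mesenchymal (1087 and 1021) and immune cells (333 and 174), and the remaining epithelium, here called the AT1 compartment (575 and 2277). Most control cells of the compartment lay in epithelial cluster 3, which was AT1-like, whereas most mutant cells lay in clusters 1, 2, 5, 6 and 10, which met no fixed set of markers and held 3 control cells in all. Nkx2-1 itself had 486 CPM in the control compartment and 14.5 CPM in the mutant, against 347 and 310 CPM in AT2-like cells. Which stretch of the gene was changed is not stated in the labels, so its 3′ count does not check the genotype by itself.

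The members were far higher in the mutant AT1 compartment, higher in mutant AT2-like and endothelial cells, and split between both directions in mesenchymal and immune cells. In the compartment, where all 49 members were measured (at least 20 UMIs over both libraries), 48 were higher in the mutant, 44 of them by at least 2-fold, against 21.9% of the 12860 genes measured there. No member was lower by at least 2-fold, against 12.1% of all genes. The median log2 ratio of mutant over control was 4.30, against 0.17 for all measured genes. Summed over the members, the level was 805 CPM (control) and 2425 CPM (mutant). In AT2-like cells 42 of 43 measured members were higher, 36 by at least 2-fold, against 7.32% of all genes, and none was lower by as much, against 5.05%. Their median log2 ratio was 1.93, against 0.18, and 1.32 over 25 members with doublets kept. In endothelial cells 48 of 49 were higher, 23 by at least 2-fold, against 7.3% of all genes, with a median of 0.91 against 0.08, and 0 were lower by at least 2-fold, against 1.96%.

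Mesenchymal cells gave 26 members higher and 23 lower, with 8 at least 2-fold higher against a background of 6.78%, and 1 at least 2-fold lower against 2.42%. Their median log2 ratio was 0.06, next to 0.04 for all genes. In immune cells 22 of 41 measured members were higher and 19 lower, with 6 at least 2-fold higher against 7.62% and 1 lower against 6.14%, and the median was also 0.06. That value depended on how cells were classed: with each cell classed singly by its markers rather than by its cluster, the immune median was 1.25 and the ratio of the shares of cells described below 2.93, in place of 1.30. In airway cells 19 of 22 measured members were higher, 7 by at least 2-fold against 10.9%, and 1 was at least 2-fold lower against 4.91%, with a median of 0.69. The airway median was 0.11 over 11 measured members at a mitochondrial share under 5%, and 0.21 over 18 with cell cycle genes kept in the clustering. The plot of member ratios by class shows these medians and the spread around them. All classes of a library come from the same control and the same mutant run, so these comparisons share whatever set those runs apart.

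**Figure D1:**
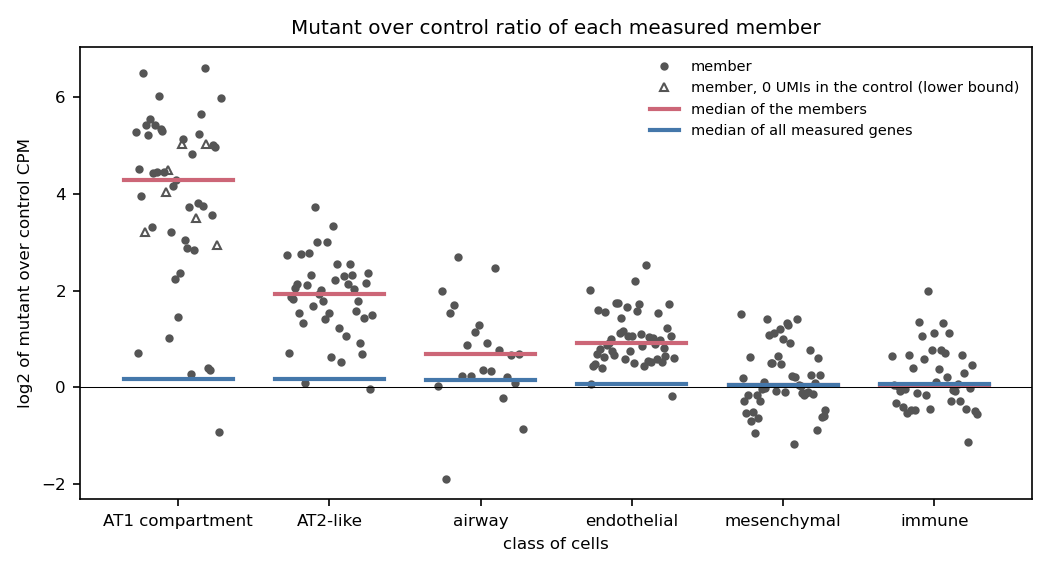
The log2 ratio of mutant over control CPM (y axis) is plotted for each measured member (points) in each class of cells (x axis), with open triangles where the control had 0 UMIs and the ratio is a lower bound. Red lines mark the median of the members and blue lines that of all measured genes; the lines lie 4.30 and 0.17 high in the AT1 compartment and nearly on each other in mesenchymal and immune cells.

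Promoters of G2 and M phase genes are known for paired CCAAT boxes, which the factor NF-Y binds, and for the cell cycle homology element TTTGAA or TTCGAA, through which the DREAM and MuvB complexes act. RefSeq start sites (GRCm38.p6) were at hand for 42 of the 49 members. Within the 250 bases before the start, on either strand, 33 of the 42 held a CCAAT (78.6%), against 34.5% of 27025 promoters of the same length, and 25 held at least 2 (59.5%), against 10.5%. TTTGAA occurred in 17 of the 42 (40.5%), against 16.3%, and TTCGAA in 1, Top2a (2.38%), against 1.34%. Both TTTGAA and CCAAT were found in 16 members (38.1%), against 5.73%. Members known to be expressed by many resting cells, listed below, held TTTGAA in 6 of 8 promoters (75.0%). The core members, defined there, held it in 11 of 34 (32.35%). TTTGAA with CCAAT was found in 75.0% and 29.4% of these promoters in the same order. Overlapping matches were counted, and a match is a description of these letters, not a sign that a factor binds.

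The promoters of 5 members on which the results turn are printed 5′ to 3′ along the gene's own strand and end at the base before the start site, with CCAAT (or ATTGG, its other strand), TTTGAA (or TTCAAA) and TTCGAA in capitals. They are those of Ccnb2 (cyclin B), Cdc20 (activator of the anaphase-promoting complex), Top2a (topoisomerase of mitotic chromosomes), Mki67 (the Ki-67 protein that coats them) and Tubb4b (a beta-tubulin that resting ciliated and AT1 cells also hold). The regions are chr9:70421555-70421804 for Ccnb2, chr4:118437344-118437593 for Cdc20, chr11:99024190-99024439 for Top2a, chr7:135716380-135716629 for Mki67 and chr2:25224703-25224952 for Tubb4b, each on the minus strand.
Ccnb2: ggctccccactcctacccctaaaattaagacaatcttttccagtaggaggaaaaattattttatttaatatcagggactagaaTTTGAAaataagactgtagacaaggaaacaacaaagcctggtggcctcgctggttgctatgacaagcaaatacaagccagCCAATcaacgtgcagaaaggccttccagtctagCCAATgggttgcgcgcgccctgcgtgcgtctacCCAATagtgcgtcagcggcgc
Cdc20: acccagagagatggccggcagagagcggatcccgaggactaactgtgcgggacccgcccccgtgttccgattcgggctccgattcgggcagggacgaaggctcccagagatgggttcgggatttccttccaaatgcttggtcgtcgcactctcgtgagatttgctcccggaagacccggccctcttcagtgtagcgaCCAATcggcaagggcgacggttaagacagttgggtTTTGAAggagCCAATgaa
Top2a: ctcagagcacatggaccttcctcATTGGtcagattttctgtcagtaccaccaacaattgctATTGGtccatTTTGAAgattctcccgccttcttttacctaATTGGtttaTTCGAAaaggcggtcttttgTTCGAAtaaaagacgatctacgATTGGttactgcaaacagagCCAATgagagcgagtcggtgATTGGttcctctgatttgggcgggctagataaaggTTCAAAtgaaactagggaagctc
Mki67: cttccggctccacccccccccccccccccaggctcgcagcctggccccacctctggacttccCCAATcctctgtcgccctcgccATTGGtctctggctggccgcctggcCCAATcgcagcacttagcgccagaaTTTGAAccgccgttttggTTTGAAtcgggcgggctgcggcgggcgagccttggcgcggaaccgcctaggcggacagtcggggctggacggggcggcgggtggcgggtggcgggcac
Tubb4b: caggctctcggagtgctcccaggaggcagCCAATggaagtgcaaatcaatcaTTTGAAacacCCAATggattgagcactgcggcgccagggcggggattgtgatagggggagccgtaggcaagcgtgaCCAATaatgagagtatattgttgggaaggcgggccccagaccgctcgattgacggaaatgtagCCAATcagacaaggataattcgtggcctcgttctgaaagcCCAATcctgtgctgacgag

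In these windows Ccnb2 has 3 CCAAT and 1 TTTGAA, Cdc20 has 2 and 1, Top2a has 6 and 2 with 2 TTCGAA besides, and Mki67 has 3 and 2. Tubb4b, with 5 CCAAT and 1 TTTGAA, has the letters of its group although its levels did not follow the group, as given below.

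The number of cells with these transcripts was counted after thinning each cell to 1500 UMIs. A cell was counted when at least 3 of 40 core members had a UMI, the core being all members but Hmgb2, Smc4, Anp32e, Tubb4b, Rangap1, Lbr, Ckap5, Cks2 and Ncapd2, which many resting cells are known to express. In the AT1 compartment this held for 2 of 575 control cells (0.348%, 0.042 to 1.25) and 309 of 2277 mutant cells (13.6%, 12.2 to 15), a ratio of 39.0 (9.74 to 156). The ratio was 88.6 (12.5 to 630) when cells were thinned to 2000 UMIs and 61.9 (8.71 to 440) with cells classed singly. Without thinning, the shares were 0.870% and 34.1%, at median depths of 6428 and 12358 UMIs. The mutant compartment also held cells with many members at a time: 92 mutant cells had at least 10 core members after thinning, and 0 control cells did. Endothelial cells had the highest shares in either library among the 6 classes, 55 of 591 control cells (9.31%, 7.09 to 11.9) and 93 of 489 mutant cells (19.0%, 15.6 to 22.8), a ratio of 2.04 (1.5 to 2.79).

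In AT2-like cells the shares were 13 of 1251 (1.04%, 0.554 to 1.77) for control cells and 16 of 213 (7.51%, 4.35 to 11.9) for mutant cells, with a ratio of 7.23 (3.53 to 14.8). Mesenchymal cells had 43 of 1087 (3.96%) and 49 of 1021 (4.80%), and the interval of the ratio, 0.813 to 1.81, spans 1. So does that of immune cells, 0.695 to 2.45, with 22 of 333 (6.61%) and 15 of 174 (8.62%). Ciliated-like cells, taken as the background because they do not divide, had 0 of 102 control cells, for which a floor of 3 counts allows a share of up to 2.94%, and 4 of 52 mutant cells (7.69%, 2.14 to 18.5). The background was thus not at 0 in the mutant library, and its wide interval holds the mutant shares of the AT1 compartment, AT2-like, mesenchymal and immune cells. Those 4 ciliated-like cells had a summed level of mesenchymal markers of 1168 CPM, against 68.9 CPM in the mutant airway cells without a core member. The ciliated-like medians were 6388 and 5403 UMIs. Those 4 mutant cells had a median of 12818 UMIs before thinning, and the mutant ciliated-like cells with no core member one of 5122. What gave the 4 cells their core member UMIs was not tested.

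**Figure D2:**
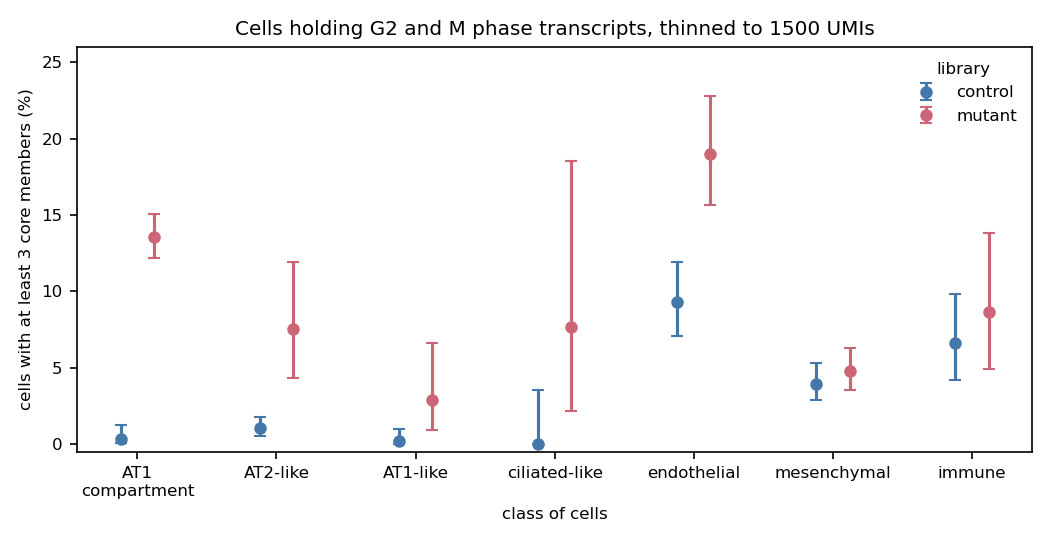
The percent of cells with UMIs of at least 3 of the 40 core members after thinning to 1500 UMIs (y axis) is plotted by class of cells (x axis) for the control library (blue) and the mutant library (red), with exact Clopper-Pearson 95% intervals as bars. The AT1 compartment stands at 0.348% and 13.6%, and endothelial cells at 9.31% and 19.0%.

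Per barcode, unthinned, a control compartment cell carried a median of 4 member UMIs and at most 48, and a mutant compartment cell a median of 8 and at most 698. For the core members the medians were 0 and 2 and the means 0.410 and 19.1. The 10% of mutant compartment cells with the most core UMIs held 80.3% of them, the cells being ranked by these same UMIs. In the other mutant classes this part was 77.3% (endothelial), 78.9% (airway), 85.6% (immune), 87.6% (AT2-like) and 90.7% (mesenchymal). In endothelial cells the mean was 5.86 core UMIs per control cell and 15.4 per mutant cell, and in mesenchymal cells 4.05 and 4.51. The corresponding immune means were 5.09 and 6.26.

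Cyclin B and the proteins around its kinase came first in the order of roles. Summed over the 5 members of this role, the compartment had 16.6 CPM (control) and 215 CPM (mutant), 12.9-fold higher. Ccnb1, which encodes cyclin B1, had 2 UMIs (0.511 CPM) for the control compartment against 700 UMIs (22.0 CPM) for the mutant, with a ratio of 43.1 (11.9 to 357). Its relative Ccnb2 had 1.02 and 38.2 CPM, a ratio of 37.4 (14.6 to 138). Cks2, the small subunit that binds the kinase and the most abundant member of the role, had 14.3 and 132 CPM, 9.25-fold higher (7.11 to 12.3). The largest ratio was that of Cdkn3, a phosphatase gene, with 1 UMI (0.255 CPM) against 533 UMIs (16.8 CPM) and a ratio of 65.7 (11.7 to 2598). Cdc25c, the phosphatase that activates the kinase, had 0.511 and 5.13 CPM.

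The same genes were nearer to 1 elsewhere, and below it in some classes. Ccnb1 had 4.16 and 12.1 CPM in AT2-like cells, a ratio of 2.92 (1.62 to 5.12), and 21.6 and 37.3 CPM in endothelial cells, a ratio of 1.72 (1.25 to 2.40). In mesenchymal cells Ccnb1 was lower in the mutant, at 17.4 and 10.7 CPM, a ratio of 0.618 (0.450 to 0.841). Its immune levels were 22.9 and 17.3 CPM, with an interval (0.417 to 1.33) that spans 1. Ccnb2 had the role's largest ratio in AT2-like cells, 6.82 (4.66 to 9.99), whereas its mesenchymal ratio was 0.705 (0.566 to 0.875). Cdc25c led the role in endothelial cells with 3.49 and 10.3 CPM, a ratio of 2.94 (1.40 to 6.75). Cks2 had the highest level of the role in every class, with ratios of 2.66 in AT2-like, 1.5 in endothelial, 0.947 in mesenchymal and 0.730 in immune cells. Cdkn3 led the mesenchymal ratios at 1.08 (0.724 to 1.60), and Ccnb2 the immune ones at 0.979 (0.692 to 1.37).

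The 3 members tied to the anaphase-promoting complex, the ubiquitin ligase that ends mitosis, summed to 3.58 CPM in the control compartment and 192 CPM in the mutant, a 53.7-fold difference. Ube2c, its ubiquitin-conjugating enzyme, had 7 UMIs (1.79 CPM) for the control against 3604 UMIs (113 CPM) for the mutant, with a ratio of 63.4 (30.8 to 158). Cdc20, which brings substrates to the ligase, had 2 UMIs (0.511 CPM) and 762 UMIs (24.0 CPM), a ratio of 46.9 (12.9 to 388). For Cdca3, a trigger of mitotic entry, the levels were 1.28 and 54.8 CPM. This role was lower in the mutant in mesenchymal and immune cells, with ratios of its summed level of 0.708 and 0.697. There Cdc20 had 21.1 and 10.9 CPM in mesenchymal cells, a ratio of 0.517 (0.381 to 0.696), and 27.7 and 19.1 CPM in immune cells, a ratio of 0.692 (0.396 to 1.17). Ube2c had 61.0 and 43.9 CPM in mesenchymal cells, a ratio of 0.719 (0.615 to 0.840), and an immune ratio of 0.686 (0.518 to 0.899). In AT2-like cells Cdc20 had 14.8 and 37.0 CPM and Cdca3 led with a ratio of 4.36 (3.06 to 6.19), next to 2.81 for Ube2c. Endothelial Cdc20 had 37.3 and 57.8 CPM (1.55, 1.21 to 1.99), Ube2c 145 and 222 CPM (1.52) and Cdca3 a ratio of 1.88 (1.46 to 2.43).

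Aurora kinases and the chromosomal passenger complex, which correct faulty chromosome attachments, summed to 6.39 CPM in the control compartment and 230 CPM in the mutant, 36-fold higher. Birc5 (survivin, a passenger subunit) was the most abundant of the role, with 5 UMIs (1.28 CPM) and 3662 UMIs (115 CPM), a ratio of 90.2 (38.6 to 278). The passenger subunit gene Cdca8 (borealin) had 2.30 and 50.7 CPM, Aurkb 1.28 and 20.02 CPM, Tpx2, which activates Aurora A at the spindle, 1.02 and 32.2 CPM, and Aurka 0.511 and 11.7 CPM. All 5 genes of the role thus stood at least 15.7-fold higher in the mutant compartment. Birc5 was the role's most abundant gene in the other classes too, with ratios of 4.14 (AT2-like), 1.61 (endothelial), 0.903 (mesenchymal) and 0.951 (immune). The largest ratio of the role was that of Cdca8 in AT2-like cells, 6.92 (4.39 to 10.9), and that of Tpx2 in endothelial cells, with 25.1 and 83.5 CPM and a ratio of 3.32 (2.55 to 4.39). Tpx2 also led in mesenchymal (1.19, 0.934 to 1.53) and immune cells (1.38, 0.817 to 2.32), where the intervals span 1.

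The 9 checkpoint and kinetochore members summed to 20.7 and 263 CPM in the compartment, 12.7-fold higher in the mutant. Cenpf, a large kinetochore protein, had 15 UMIs (3.83 CPM) and 2675 UMIs (84.2 CPM), a ratio of 22.0 (13.3 to 39.3). The centromeric histone gene Cenpa had 7 UMIs (1.79 CPM) and 2303 UMIs (72.5 CPM), a ratio of 40.5 (19.6 to 101). Cenpe, a kinetochore motor, had 0.766 and 30.4 CPM, and Nuf2, part of the Ndc80 complex that grips microtubules, 0.255 and 9.72 CPM. Ndc80 itself and the checkpoint kinase genes Bub1 and Ttk had 0 control UMIs and 276, 225 and 188 mutant UMIs. Set against a floor of 3 control counts, these were at least 11.3-fold, 9.24-fold and 7.72-fold higher in the mutant. Kif2c, which takes microtubules apart, had a ratio of 13.4. The smallest ratio of the role was that of Hjurp, the chaperone that loads Cenpa, with 13.5 and 37.4 CPM (2.76, 2.10 to 3.71), and Hjurp was also the member of this role with the most control UMIs there (53).

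Outside the compartment Cenpe and Cenpf stood higher in the mutant in AT2-like, endothelial, mesenchymal and immune cells. Cenpe led the role in AT2-like cells, with 1.14 and 15.2 CPM and a ratio of 13.3 (6.30 to 29.9), and in endothelial cells, with 22.3 and 74.9 CPM and a ratio of 3.36 (2.53 to 4.51). It also led in mesenchymal cells, with 8.96 and 23.9 CPM (2.67, 1.97 to 3.65), and in immune cells, with 12.8 and 32.8 CPM (2.57, 1.49 to 4.50). Cenpf had ratios of 8.03, 3.35, 2.12 and 2.09 in the same order of classes. By the sum of both libraries' levels the most abundant of the role was Cenpf in AT2-like cells and Cenpa in the other 3 of these classes, and Cenpa gave ratios of 1.60 (1.39 to 1.84) in endothelial, 0.999 (0.852 to 1.17) in mesenchymal and 0.928 (0.724 to 1.18) in immune cells. Kif2c was the member at least 2-fold lower in mesenchymal cells, at 6.69 and 2.97 CPM (0.444, 0.243 to 0.779).

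Spindle and centrosome genes were the role in which the sum and the members parted. In the compartment 11 of the 12 were at least 2-fold higher in the mutant, yet the sum was 483 CPM (control) and 450 CPM (mutant). This came with Tubb4b, a beta-tubulin of microtubules, which had 1822 UMIs (465 CPM) for the control against 7784 UMIs (245 CPM) for the mutant, with a ratio of 0.526 (0.50 to 0.554), the lowest of the 49. Nusap1, which bundles spindle fibres, had 3 UMIs (0.766 CPM) and 1225 UMIs (38.6 CPM), a ratio of 50.3 (17.2 to 244). In 4 genes the control had 0 UMIs: Psrc1, Hmmr, Ckap2l and Ckap2, all spindle proteins, had 802, 797, 547 and 400 mutant UMIs and were at least 32.9-fold, 32.7-fold, 22.5-fold and 16.4-fold higher. Kif11, the motor that pushes the spindle poles apart, had 0.511 and 18.0 CPM and a ratio of 35.2. The ratios of Gtse1, Dlgap5, Nek2 and Tacc3 lay between 11.9 and 19.7, and that of Ckap5, a microtubule polymerase also used by resting cells, was 2.05 (1.55 to 2.75).

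Tubb4b had the highest level of the role in every class, and its ratio was below 1 in each of them, within counting error in AT2-like cells. It had 185 and 180 CPM in AT2-like cells (0.976, 0.860 to 1.10), 222 and 197 CPM in endothelial cells (0.889, 0.793 to 0.996), 128 and 85.1 CPM in mesenchymal cells (0.665, 0.595 to 0.741) and 137 and 97.5 CPM in immune cells (0.711, 0.562 to 0.894). Tubulin genes are near copies of each other, and the treatment of reads that fit several genes is not stated in the sources at hand. Hmmr led the role's ratios in AT2-like cells (10.1, 4.56 to 23.5), in endothelial cells with 9.77 and 44.8 CPM (4.59, 3.03 to 7.17) and in mesenchymal cells with 7.54 and 19.0 CPM (2.52, 1.80 to 3.55). In immune cells Ckap5 led with 7.98 and 31.9 CPM, a ratio of 4.0 (2.13 to 7.88), the highest of the 41 members measured there. The lowest immune ratio was that of Tacc3, a spindle pole protein, with 21.8 and 10.0 CPM (0.460, 0.213 to 0.911).

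The 5 cytokinesis members, which build the central spindle and the contractile ring, summed to 12.3 and 151 CPM in the compartment, 12.3-fold higher in the mutant. Prc1, which crosslinks the central spindle, had 2 UMIs (0.511 CPM) and 1595 UMIs (50.2 CPM), and its ratio of 98.2 (27.2 to 812) was the highest of the 49. The ring protein gene Anln had 0.766 and 29.8 CPM and a ratio of 38.9, the motor genes Kif20b and Kif23 had ratios of 8.25 and 7.38, and Ect2, which activates the ring, had one of 4.72 (2.97 to 8.02). This was the role with the largest ratio of its sum in endothelial (2.87), mesenchymal (1.84) and immune cells (1.85). Prc1 was its most abundant gene in those classes and in AT2-like cells, with 9.15 and 27.3 CPM in AT2-like cells (2.99), 40.8 and 119 CPM in endothelial cells (2.92) and 20.3 and 34.8 CPM in mesenchymal cells (1.71, 1.38 to 2.13). Ect2 led the ratios in AT2-like cells (8.03, 4.03 to 16.4) and Anln in endothelial (4.03, 2.66 to 6.27) and mesenchymal cells (2.88, 2.01 to 4.21). In immune cells Kif20b led, with 6.91 and 17.3 CPM (2.50, 1.17 to 5.52), and Prc1 had 16.0 and 25.5 CPM with an interval (0.921 to 2.77) that spans 1.

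Chromosome structure genes summed to 203 CPM (control) and 811 CPM (mutant) in the compartment, a ratio of 4.0. Mki67, whose protein keeps mitotic chromosomes apart and marks cycling cells, had 15 UMIs (3.83 CPM) and 3449 UMIs (109 CPM), a ratio of 28.3 (17.1 to 50.7). Top2a, which untangles sister chromatids, had 14 UMIs (3.58 CPM) and 3656 UMIs (115 CPM), a ratio of 32.2 (19.1 to 58.9). Hmgb2, the gene of a chromatin-bending protein, had 296 UMIs (75.6 CPM) and 12478 UMIs (393 CPM), a ratio of 5.19 (4.63 to 5.85). The condensin genes Ncapd2 and Smc4 had ratios of 7.13 and 1.29 (1.14 to 1.46), Cdca2, which brings a phosphatase to chromosomes, one of 21.8 and the histone chaperone gene Anp32e one of 1.65. Mki67 had a UMI after thinning in 2 of 575 control cells (0.348%) and 205 of 2277 mutant cells (9.0%) of the compartment, against 0 of 102 and 1 of 52 ciliated-like cells.

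Mki67 was higher in the mutant in each of the 6 classes. It had 11.95 and 59.5 CPM in AT2-like cells (4.98, 3.76 to 6.58), 35.2 and 205 CPM in endothelial cells (5.83, 4.71 to 7.27), 26.5 and 71.1 CPM in mesenchymal cells (2.69, 2.26 to 3.21) and 40.4 and 88.4 CPM in immune cells (2.19, 1.60 to 2.99). It had the largest ratio of its role in these 4 classes, and in endothelial cells of all 49 members. Top2a had 12.8 and 57.1 CPM in AT2-like cells (4.46, 3.38 to 5.89), 97.7 and 229 CPM in endothelial cells (2.34, 2.03 to 2.70) and 47.8 and 73.2 CPM in mesenchymal cells (1.53, 1.33 to 1.77). Its immune levels of 80.3 and 79.3 CPM differed by less than counting error (0.750 to 1.29). Hmgb2 had 216 and 334 CPM in AT2-like cells (1.55), 684 and 969 CPM in endothelial cells (1.42), 284 and 268 CPM in mesenchymal cells (0.942, 0.882 to 1.01) and 650 and 704 CPM in immune cells (1.08, 0.988 to 1.19).

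**Figure D3:**
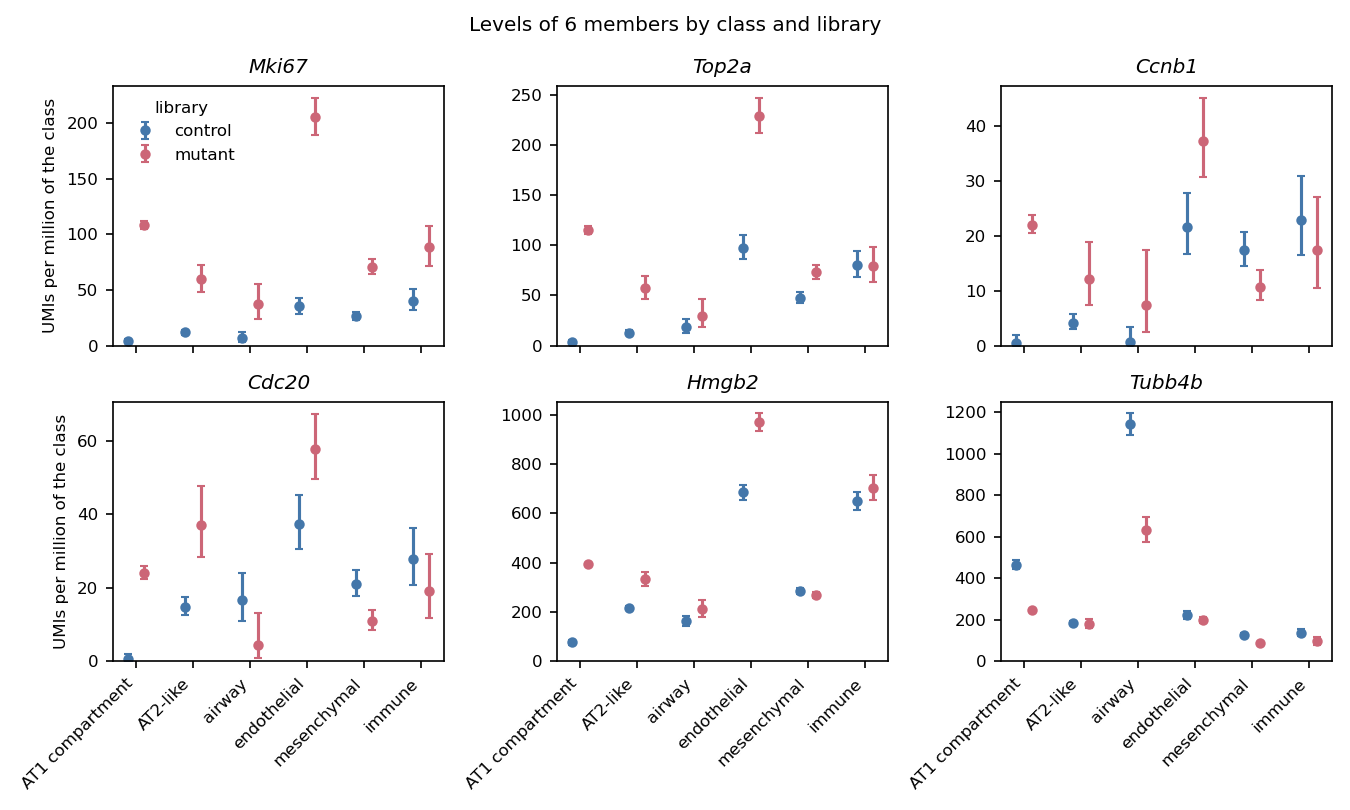
The level of 6 members in CPM of the class (y axes, each from 0 and scaled to its own gene) is plotted by class of cells (x axis) for the control (blue) and mutant (red) library, with exact Poisson 95% intervals as bars. Mki67 is higher in the mutant in all 6 classes, Cdc20 is lower there in mesenchymal and airway cells and, within counting error, in immune cells, and Tubb4b is highest in control airway cells at 1143 CPM.

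The last 3 members, of the nuclear envelope and other functions, had a summed level of 60.0 and 115 CPM in the compartment, a ratio of 1.91. Pbk, a mitotic kinase gene, had 3.07 and 41.3 CPM and a ratio of 13.5 (7.68 to 26.1). Rangap1, which drives nuclear transport, was the most abundant, with 36.8 and 48.9 CPM (1.33, 1.12 to 1.59), and the interval of Lbr, a receptor of the inner nuclear membrane, spanned 1 (0.958 to 1.54). Pbk led in AT2-like (4.11, 2.64 to 6.34) and endothelial cells (1.51, 1.16 to 1.98). Lbr, the most abundant of the 3 outside the epithelium of the compartment and the airway, had 60.3 and 81.8 CPM in endothelial cells (1.36, 1.11 to 1.66), 24.0 and 34.6 CPM in AT2-like cells and ratios of 1.16 in mesenchymal and immune cells, with intervals that span 1. Rangap1 had the role's largest immune ratio, 1.23 (0.781 to 1.93).

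Airway cells were few, and 27 of the 49 members had under 20 UMIs there. Tubb4b, a part of cilia, was by far the most abundant member, with 1143 and 633 CPM (0.554, 0.497 to 0.616). Cdc20 was the 1 member at least 2-fold lower, with 27 control and 3 mutant UMIs (0.271, 0.053 to 0.880). Mki67 had 6.74 and 37.3 CPM (5.54, 2.63 to 12.5), Cenpa 3.67 and 23.9 CPM (6.5, 2.42 to 20.3) and Birc5 6.74 and 26.9 CPM (3.99, 1.78 to 9.35). Top2a had 18.4 and 29.9 CPM, with an interval (0.875 to 2.96) that spans 1, and Ccnb1 had 1 and 5 UMIs. Among the remaining genes that led a role, Cks2 (1.18), Cenpf (1.17), Ckap5 (1.83), Ect2 (2.22), Kif23 (1.90), Rangap1 (1.16) and Lbr (1.27) had intervals that span 1, while those of Cdca3 (2.93, 1.16 to 7.56) and Hmgb2 (1.29, 1.05 to 1.59) did not. With 4 mutant cells holding at least 3 core members, these ratios rest on few cells.

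The clusters of the AT1 compartment differed widely in these genes. Cluster 6, with 285 mutant and 0 control cells, had cell cycle genes among its leading genes and a summed core level of 5377 CPM. The members and the S phase and further G2 and M phase lists given below were kept out of the clustering. Other cell cycle genes were not, and Hist1h1b, 2810417H13Rik and Tk1 were among those that led the cluster. There 198 cells (69.5%) had at least 3 core members. Mki67 stood at 461 CPM and Top2a at 579 CPM in it, with Ccnb1 at 72.3 and Cdc20 at 71.9 CPM. Clusters 1 and 2 of the mutant had 718 and 598 CPM of core members and 57 of 702 (8.12%) and 34 of 651 (5.22%) such cells, and cluster 10 had 1175 CPM and 12 of 81 (14.8%). In cluster 10 Ccnb1 (41.3 CPM) and Cdc20 (43.1 CPM) stood above Mki67 (17.2 CPM) and Top2a (24.1 CPM), the reverse of clusters 1 and 6. Cluster 5 was lower, with 129 CPM of core members and 3 of 385 such cells (0.779%), with AT1 genes among its leading genes.

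In cluster 8, the AT1-like cluster that both libraries shared, the core members summed to 36.6 CPM over 61 control cells and 297 CPM over 168 mutant cells, and 0 and 5 cells (2.98%) had at least 3 of them. Over both AT1-like clusters, 21 members were measured and 18 were higher in the mutant, 13 by at least 2-fold, against 6.35% of all genes, and none lower by as much, against 7.91%, with a median log2 ratio of 1.59. That ratio mostly sets control cells of cluster 3 beside mutant cells of cluster 8. Among their 10 leading genes, clusters 1, 2 and 10 hold Plac8 (of monocytes), Sema3c (of capillary cells), and Tagln and Acta2 (of smooth muscle). These are markers of another cell class, and none of their own was among them. Their other leading genes were on no marker list. They include Tff1, Agr2 and Tff2 in cluster 1, Scara3, Tm4sf1 and Clu in cluster 2, and Sprr1a, Fam25c and Gpx2 in cluster 10. Without clusters 1, 2 and 10, a choice made after their genes were seen, the compartment's median log2 ratio was 5.11 and the mutant share 24.4%. Without cluster 6, also chosen afterwards, the median was 2.80 and the share 5.57%.

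Mutant compartment cells with at least 3 core members had a median of 16204 UMIs, and those with none 11650.5. Summed endothelial markers stood at 30.4 CPM in cells with at least 3 core members and 32.7 CPM in cells with none, mesenchymal markers at 43.5 and 76.5 CPM and immune markers at 24.0 and 24.4 CPM. Of the single markers, Cdh5 had 2.65 CPM (1.48 to 4.37) in the former and 0.919 CPM (0.545 to 1.45) in the latter. Pecam1 had 3.71 (2.30 to 5.68) and 1.79 CPM (1.24 to 2.49). Both are endothelial and were higher in cells with at least 3 core members, while the sum over all endothelial markers was not. The immune markers Ptprc and Laptm5 had 1.95 and 0.817 CPM and 7.43 and 7.30 CPM in the same order. The mesenchymal markers Col1a1 and Col1a2 had 6.01 and 7.56 CPM and 3.89 and 5.46 CPM. The part of such RNA in the members' levels was not tested. Epithelial markers stood at 5185 and 6717 CPM. The receptor gene Ager, which marks AT1 cells, had 405 CPM in the cells with at least 3 core members and 1731 CPM in those with none, and Nkx2-1 had 4.77 and 18.8 CPM.

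AT2-like cells gave opposite directions at the level of the class and of the cluster. All 29 AT2-like cells with at least 3 core members lay in cluster 7, which Lrg1, an acute-phase glycoprotein gene, led. In it were 81 of 1251 control and 186 of 213 mutant AT2-like cells. Within cluster 7 the share was 13 of 81 control cells (16.0%, 8.83 to 25.9) and 16 of 186 mutant cells (8.60%, 5.0 to 13.6), a ratio of 0.536 (0.271 to 1.06). The summed core level was 1735 CPM (control) and 826 CPM (mutant), Mki67 had 107 and 67.4 CPM, Top2a 132 and 64.7 CPM, Ccnb1 46.9 and 13.8 CPM and Cdc20 139 and 42.0 CPM. The median log2 ratio over the members was -0.97 inside the cluster, against 1.93 over all AT2-like cells. In the other AT2-like clusters, 0 and 4, which held 726 and 444 control cells, 0 cells had at least 3 core members. The higher levels of the members in mutant AT2-like cells thus went with the larger share of cluster 7 in that library. The comparison within the cluster was chosen after the cells' place was seen, and the cluster was itself drawn from these cells.

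Of the endothelial cells with at least 3 core members, most lay in cluster 4, in which cell cycle genes led. They were 46 of its 54 control cells (85.2%) and 74 of its 85 mutant cells (87.1%). The other endothelial cells lay mostly in different clusters by library: cluster 0 held 5 control and 252 mutant cells, cluster 1 held 185 and 6, and cluster 2 held 166 and 9. At least 3 core members were found in 13 of the 252 mutant cells of cluster 0 (5.16%), 5 of the 185 control cells of cluster 1 (2.70%) and 2 of the 166 of cluster 2 (1.20%). In the Car4 capillary-like cluster, which both libraries shared, this held for 0 of 86 control cells, for which the floor of 3 counts allows up to 3.49%, and 3 of 73 mutant cells (4.11%, 0.856 to 11.5). Immune markers summed to 11.4 CPM in control endothelial cells with no core member and to 174 CPM in mutant ones, and to 9.33 and 176 CPM in those with at least 3 core members. In mesenchymal cluster 9, likewise led by cell cycle genes, 26 of 26 control and 26 of 28 mutant cells had at least 3 core members. Pericyte-like cells had 3 of 139 (2.16%) and 7 of 90 (7.78%, 3.18 to 15.4).

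Among immune types the alveolar macrophage-like cells, which renew themselves in the lung, went the other way, with 8 of 40 control cells (20%, 9.05 to 35.6) and 1 of 45 mutant cells (2.22%, 0.056 to 11.8). Without thinning these were 22.5% and 13.3%. T cell-like cells had 6 of 84 (7.14%) and 5 of 21 (23.8%, 8.22 to 47.2), and interstitial macrophage-like cells 3 of 20 and 7 of 42. The small numbers of cells leave wide intervals for each of these types.

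To describe how closely each member kept to cells with mitotic transcripts, cells of both libraries were chosen on the other core members only, leaving the member itself out. Depending on the member, 591 to 623 cells had at least 3 other core members, and for the members outside the core these made up 7.57% of the cells and held 11.5% of all UMIs. By library such cells were 3.44% of the control and 11.4% of the mutant cells, with 4.38% and 15.9% of the UMIs, so the pooled values below weigh the mutant library more. Nusap1 had 94.1% of its UMIs in them (93.7% control, 94.2% mutant), Ccnb1 93.6% (95.2% and 93.1%), Ube2c 93.4% (94.7% and 93.1%) and Hmmr 92.9% (93.2% and 92.8%). Hmmr, a hyaluronan receptor at the spindle, had 138 CPM in these cells and 0.345 CPM in cells with no other core member, a ratio of 400 (252 to 677). Mki67 had 81.3% (75.4% and 82.0%) and Top2a 85.4% (85.2% and 85.4%) of their UMIs there, Cdc20 86.5% and Cenpf 88.4%. At the other end, Tubb4b had 26.4% of its UMIs in these cells (13.3% and 36.2%), with 547 and 196 CPM (2.79, 2.69 to 2.89), and Anp32e had 32.6% (18.9% and 39.3%) and Lbr 32.7% (19.9% and 40.1%).

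Among the core members Hjurp had 48.5% (39.1% and 50.9%). Psrc1 differed between the libraries, with 81.1% in the control and 34.0% in the mutant, and its pooled value of 38.5% follows the mutant. Of the members left out of the core for being used by resting cells, Cks2 had 75.3% of its UMIs in them, Ncapd2 71.2%, Hmgb2 60.0% and Smc4 50.1%. Hmgb2 had 1922 CPM in them and 138 CPM in cells with none (13.9, 13.5 to 14.3). Tubb4b, Lbr, Smc4, Rangap1, Anp32e, Ckap5 and Hjurp, which had the smallest ratios in the AT1 compartment, lie near the low end of this order in each library.

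**Figure D4:**
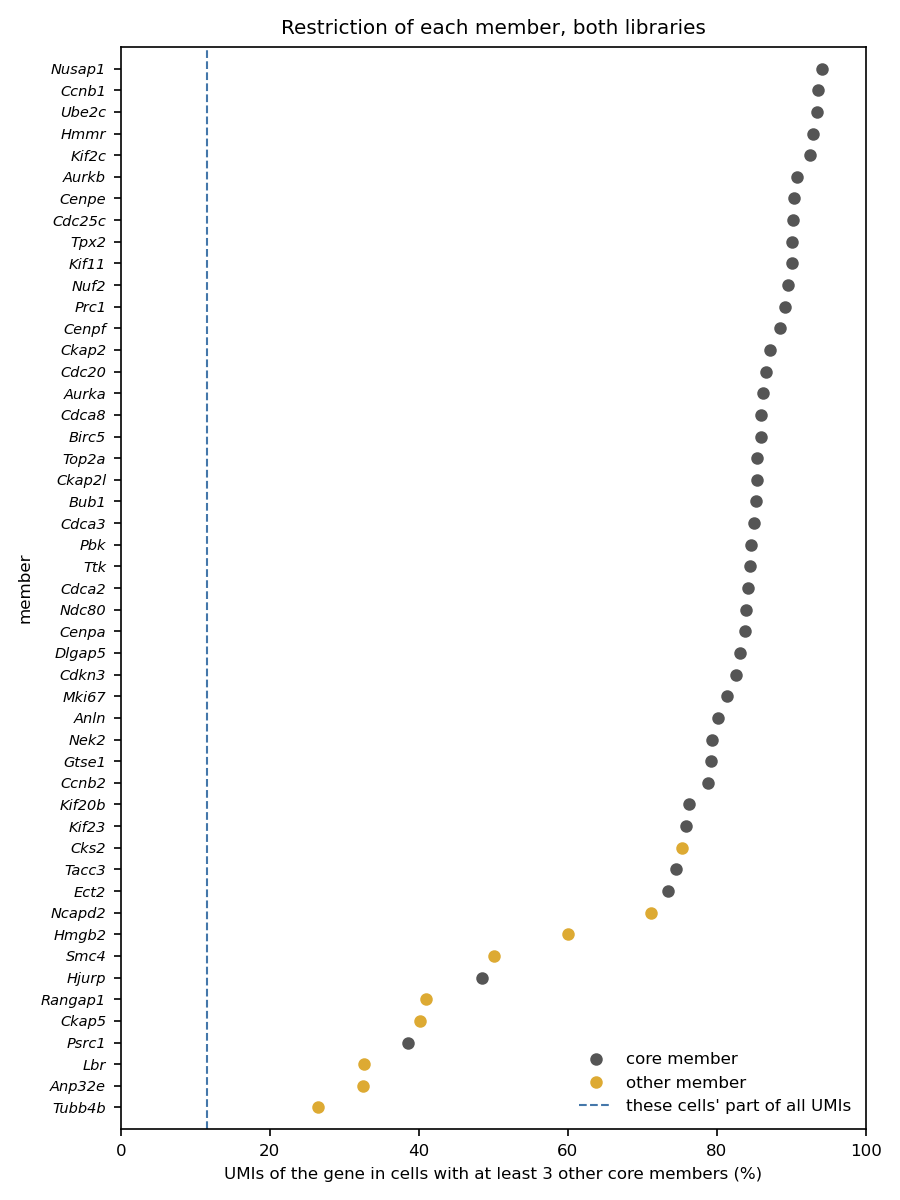
For each of the 49 members (y axis), the percent of its UMIs found in cells that held at least 3 other core members (x axis) is plotted over all cells of both libraries, dark for the 40 core members and yellow for the 9 others. The dashed line marks the 11.5% of all UMIs that these cells held for members outside the core and the members run from 94.1% (Nusap1) to 26.4% (Tubb4b).

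Inside the cells with at least 3 other core members the libraries could be compared with the number of such cells set aside. In endothelial cells (51 to 55 control and 90 to 93 mutant cells) the median ratio over the members was 1.04, in mesenchymal cells (42 to 43 and 45 to 49) 0.917, in immune cells (20 to 22 and 14 to 15) 0.875 over 38 members and in AT2-like cells (13 and 14 to 16) 0.755 over 35. The counting intervals of 17 of 49 endothelial, 22 of 49 mesenchymal, 10 of 38 immune and 10 of 35 AT2-like ratios did not include 1. Within these cells some members were higher and others lower in the mutant library. No such count over all genes of these cells is at hand, so these counts do not set the members apart from other genes. The threshold for entering this group of cells is the same in each library but does not fix which phase of division a cell is in.

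On the higher side, Mki67 had the largest ratio in such endothelial cells, with 293 and 918 CPM (3.13, 2.51 to 3.94). It had 311 and 826 CPM in mesenchymal cells (2.66, 2.15 to 3.29) and 332 and 627 CPM in immune cells (1.89, 1.36 to 2.63). Larger mesenchymal ratios were those of Ckap5 (3.19, 1.84 to 5.80) and Anln (2.87, 1.87 to 4.49). Larger immune ratios among the measured members, Rangap1 (2.17) and Kif20b (1.97), had intervals that span 1. In AT2-like cells Mki67 had 446 and 438 CPM (0.982, 0.681 to 1.41). Cenpf had 451 and 838 CPM in endothelial cells (1.86, 1.54 to 2.25) and 385 and 760 CPM in mesenchymal cells (1.98, 1.62 to 2.41). The kinetochore motor gene Cenpe had ratios of 2.02, 2.43 and 1.89 in endothelial, mesenchymal and immune cells, and Ckap5 ratios of 1.52 and 3.19 in endothelial and mesenchymal cells. Lower in the mutant were Tubb4b, with 793 and 391 CPM in mesenchymal cells (0.494, 0.404 to 0.600) and ratios of 0.635 and 0.528 in endothelial and immune cells, and Cdc20, with 328 and 154 CPM in mesenchymal cells (0.469, 0.339 to 0.642). Ube2c had 1250 and 1014 CPM in endothelial cells (0.811, 0.714 to 0.921), 1025 and 639 CPM in mesenchymal cells (0.624, 0.531 to 0.732) and an immune ratio of 0.504.

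Several members on the higher side have long transcripts. This pattern was noticed in the values and is given as a description. By the longest coding transcript in GENCODE vM21, Cenpf has 11130 bases, Mki67 10061, Cenpe 7910 and Ckap5 6665, whereas Ccnb1 has 2489, Ube2c 2191, Cdc20 1793 and Tubb4b 1598, around a median of 3033 over the 49. In mesenchymal cells 20 of the 24 members longer than the median were higher in the mutant, with a median log2 ratio of 0.62, and 6 of the 25 others, with a median of -0.16. Within the mesenchymal cells that held at least 3 other core members these were 17 of 24 (0.52) and 3 of 25 (-0.25). Endothelial members had medians of 1.20 and 0.75 over all cells and 0.46 and -0.02 within such cells. In the AT1 compartment, by contrast, the longer and the other members had medians of 4.31 and 4.30.

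Genes outside the list moved with length as well. Over all measured mesenchymal genes, split into 5 equal groups from short to long transcripts, the median log2 ratios were -0.16, -0.19, 0.00, 0.23 and 0.46. From the group of the shortest to that of the longest transcripts they ran from -0.08 to 0.47 in endothelial cells, from -0.03 to 0.36 in immune cells and from -0.12 to 0.66 in airway cells. The AT2-like medians ran from 0.15 to 0.32 and those of the AT1 compartment from 0.04 to 0.46. Genes of low GC content were also higher in the mutant, with medians from 0.27 in the lowest to -0.11 in the highest of 5 mesenchymal groups. The part of this shift in the ratios of Mki67, Cenpf, Cenpe, Cdc20 and Tubb4b was not tested, nor was its part in the small ratios of the AT1 compartment, such as those of Smc4, Rangap1 and Lbr.

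**Figure D5:**
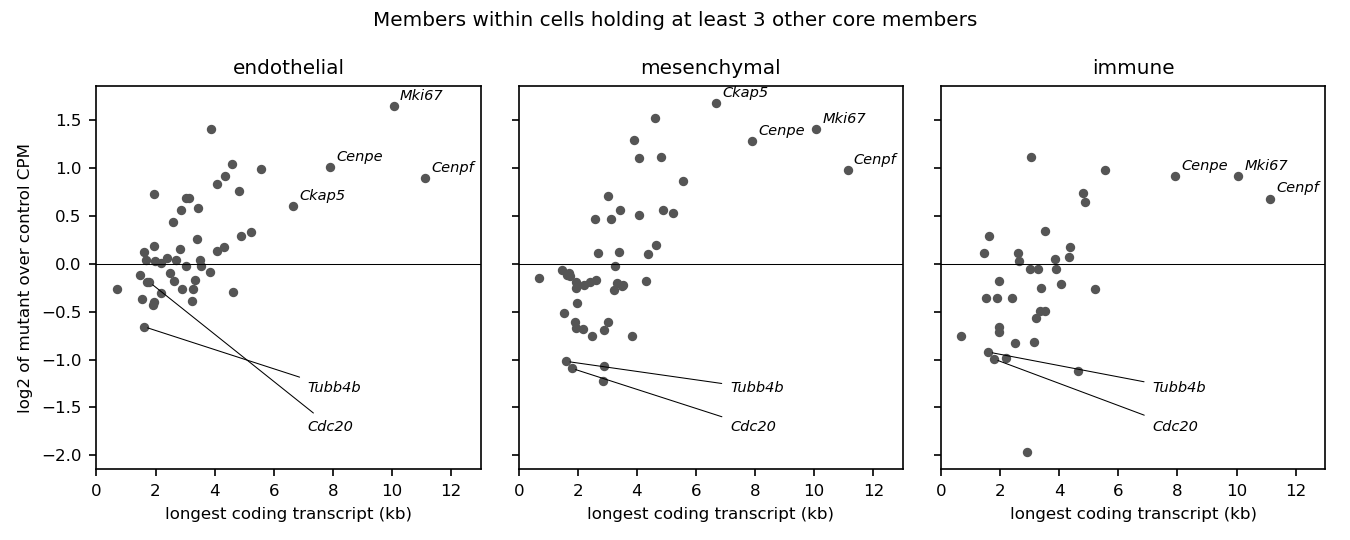
For each measured member, the log2 ratio of mutant over control CPM within cells holding at least 3 other core members (y axis) is plotted against the length of its longest coding transcript in kilobases (x axis), in endothelial, mesenchymal and immune cells (panels). Mki67, Cenpf and Cenpe lie to the right and above 0, and Tubb4b and Cdc20 to the left and below 0, in all 3 panels.

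Members also differed in how far their cells carried transcripts of S phase, the stage of DNA copying before G2. In cells with at least 3 other core members, thinned alike to decide which cells held the member, those with Cenpa had 1826 CPM of a list of S phase genes and those without it 3379 CPM, a ratio of 0.540. Low ratios were also found for Cdkn3 (0.580), Cdc25c (0.609), Cdc20 (0.711), Ccnb2 (0.733), Cenpf (0.740) and Cks2 (0.740). At the other end stood Top2a, with 3272 CPM in the cells that had it and 2136 CPM in those that did not (1.53), Ncapd2 (1.43), Pbk (1.34) and Ndc80 (1.33). In the mutant AT1 compartment alone the order began with Cenpa (0.517) and Cdkn3 (0.606) and ended with Pbk (1.32) and Top2a (1.49). The median depths of the cells with and without Cenpa there were 16583 and 16279.5 UMIs, and of those with and without Top2a 16169 and 16676.

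Of the 309 mutant compartment cells with at least 3 core members, 155 also had UMIs of at least 3 S phase genes after thinning, and 410 compartment cells had the latter in all. In the control compartment, 2 cells had the former, 6 the latter and 2 both. The S phase list itself was higher in the mutant compartment, with 42 of 42 genes higher. Of these, 36 were higher by at least 2-fold, against 21.9% of all measured genes. The list's median log2 ratio was 2.76, against 0.17 over all genes. Its genes with the most UMIs there were Usp1, a deubiquitinase of DNA repair (9.96 and 76.5 CPM), the histone chaperone gene Nasp (23.8 and 70.1 CPM) and Pcna, the clamp of DNA polymerase (27.6 and 64.6 CPM). The S phase medians were 1.10 in AT2-like, 0.38 in endothelial, -0.06 in mesenchymal and 0.14 in immune cells. Those of all measured genes were 0.18, 0.08, 0.04 and 0.07 in the same order. Pcna was lower in mutant endothelial cells, with 92.4 and 71.5 CPM (0.774, 0.642 to 0.931).

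A further list of 50 G2 and M phase genes that are no members had 49 higher and 1 lower in the mutant compartment. Of them 45 were at least 2-fold higher, against 21.9% of all genes, and 1 at least 2-fold lower, against 12.1%. The list had a median of 3.64, against 0.17 over all genes. Its most abundant genes were Hn1, a gene of microtubule control (70.8 and 293 CPM), Tmpo, of the nuclear lamina (75.9 and 185 CPM), and Cks1b, the sister gene of Cks2 (16.6 and 151 CPM). The exception was Pttg1, securin, which holds back the cutting of sister chromatids, with 65.9 CPM (control) and 25.0 CPM (mutant). Pttg1 was also lower in endothelial cells (135 and 100.3 CPM) and, within counting error, in AT2-like cells (39.7 and 31.6 CPM). In AT2-like cells 37 of 40 measured genes of this list were higher with a median of 1.40, in endothelial cells 46 of 49 with 0.63, in mesenchymal cells 23 of 49 with -0.10 and in immune cells 20 of 36 with 0.10. For all measured genes the medians in these classes were 0.18, 0.08, 0.04 and 0.07. The kinase gene of mitotic entry itself, Cdk1, was lower in mutant mesenchymal cells, with 51.8 and 22.8 CPM.

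Some of these counts are uncertain for reasons of the annotation. Hmgb2 and Tubb4b have near copies in the genome, and several members overlap a gene on the other strand: Tubb4b with Fam166a, Cdc20 with Elovl1, Ube2c with Tnnc2, Tacc3 with Tmem129, Nusap1 with Oip5, Rangap1 with Zc3h7b and Prc1 with Rccd1. The strand setting of the counting is not stated in the sources at hand.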

How the data were processed

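Single-cell libraries of sorted lung cells, 1 control and 1 mutant, were analysed from whole-number UMI counts per gene and barcode, deposited by the authors as filtered matrices. Cell Ranger, Seurat and the build mm10 are named per the submitters' processing notes, and the sources used here do not give their versions. Library totals were 29862980 and 47271104 UMIs, and no cell used had fewer than 1500. Cells with under 500 genes (1 and 1) or a mitochondrial share of 10% or more (319 and 132) were left out. Doublets were called by comparison with simulated pairs of cells (2.46% and 2.15% of cells, with 47.7% and 44.7% of simulated pairs found) and removed. The other cells were clustered with Leiden (leidenalg 0.10.2, igraph 0.11.9, resolution 1, 2000 variable genes, 30 components, 20 neighbours). The members, the S phase list and the further list of G2 and M phase genes were left out of the clustering. Cell cycle genes on none of these lists were not left out. Clusters were named X-like from at least 3 fixed markers, and 60 control and 74 mutant cells of mixed clusters were left out. Python 3.11.15, numpy 2.4.6, scipy 1.17.1, scikit-learn 1.9.0, scikit-image 0.26.0 and matplotlib 3.10.9 were used.

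Counts were summed per class and scaled to 1000000. A member was measured with at least 20 UMIs over both libraries and called at 2-fold, and a level of 0 was set to a floor of 3 counts for a bound. Ratios have exact conditional binomial intervals, levels exact Poisson intervals and shares exact Clopper-Pearson intervals, all at 95% and all covering counting error only. No test was made, since each group had 1 library. The counting steps were checked on simulated data. The members and lists were chosen with earlier results of these data known. All members are given by role. Each role's most abundant member and the one with the largest ratio in each class are named, with Mki67, Top2a, Ccnb1 and Cdc20 in every class. Of the other lists, up to 3 genes with the most UMIs and genes against the list's direction are named. Alternatives covered doublets, mitochondrial share, clustering, scaling, thresholds and thinning.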

Additional observations from a re-analysis of the deposited data

How the results depend on the processing

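Of 130 alternative values of the list medians and of the ratios of shares, 118 stayed within counting error or the spread of the members, 10 moved and 2 reversed. Of the shares of cells themselves, 101 values stayed within counting error and 25 moved. The AT1 compartment's median log2 ratio lay between 4.12 and 4.58 under the alternatives chosen at the start, and its ratio of shares between 33.9 and 88.6. The AT2-like median was 1.32 with doublets kept and 2.25 as a mean over cells. The airway median was 0.11 at a mitochondrial share under 5% and 0.21 with cell cycle genes kept in the clustering. The endothelial median was 1.44 with cells classed singly and 1.15 as a mean over cells. With cells classed singly the immune median was 1.25 and the immune ratio of shares 2.93. The cause of these shifts was not tested. Of the alternatives added after the data were seen, the AT1 compartment's median was 5.11 without clusters 1, 2 and 10 and 2.80 without cluster 6, and its ratio of shares 140 and 16.0. In AT2-like cluster 7 alone the median was -0.97 and the ratio of shares 0.536, both reversed. The mutant compartment's share was 34.1% without thinning, 15.4% at 2000 UMIs, 17.7% with at least 2 and 9.66% with at least 5 core members. At a mitochondrial share under 5% the compartment's ratio of shares had no value, since 0 of 449 control cells had at least 3 core members, and at a minimum of 100 UMIs the airway median had none, since too few members were left. No paired analysis was possible because each group had 1 library. With 1 library in each group, genotype, animal, sort and run cannot be told apart. Few cells stand behind the airway and immune values.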
